A study of Homo sapiens with 4 samples.

Results

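The retinoid and vitamin D receptor axis was followed through 10 genes in CaSki cells, a cervical squamous carcinoma line that carries human papillomavirus. The genes were ALDH1A3, DHRS3, CRABP2, RARA, RARB, RARG, RXRA, VDR, RARRES1 and CYP24A1. A probe set was taken when the platform annotation gave it exactly 1 gene symbol and that symbol was one of the 10, and every such probe set was kept. This gave 27 of the 54613 probe sets tested. The cells had been transduced with lentivirus to express either GFP, the control, or ZNF750, a zinc finger protein of squamous epithelia that promotes epidermal differentiation. Total RNA of each group was hybridized to 2 single-colour Affymetrix HG-U133 Plus 2.0 arrays. Cells of both groups were kept in DMEM, for which the labels state 0% fetal bovine serum, and the labels list no added retinoid or vitamin D. Serum carries retinol and vitamin D, and whether the stated 0% is exact or a misprint is not known, so the supply of either to these cells is not known. The series measured 1 cell line, and the design text calls the arrays biological duplicates without saying how the cultures were made. Each p-value sets a difference against the spread between these arrays, which limma pools in part over probe sets of like signal. It does not cover other cell lines.

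Retinoic acid is made inside cells from retinol by way of retinal. It is carried to nuclear receptors, the retinoic acid receptors, which bind DNA as pairs with a retinoid X receptor and switch target genes on when the ligand is present. The vitamin D receptor pairs with the same retinoid X receptors and is activated by calcitriol, the hormonal form of vitamin D. In stratified epithelia retinoic acid restrains keratinization, and vitamin D favours the differentiation of keratinocytes.

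The receptors recognize direct repeats of a hexamer half-site. RefSeq start sites (GRCh38.p14) of 8 of the 10 genes were in the table of promoters, with 16 windows in all. VDR and CYP24A1 had no entry. The 250 bases before each start site were searched on both strands for the consensus half-site AGGTCA and for its variant forms, which were AGTTCA in one form, GGTTCA in another and GGGTCA in the last. A repeat was counted when 2 half-sites, which may differ, lay in the same direction and were separated by 3, 4 or 5 bases. Each repeat thus also counts as 2 half-sites. The windows of 3 genes are shown because they hold the promoter repeat of RARB, a classical retinoic acid target, and the promoters of the 2 members with the clearest rises. Capitals mark half-sites, and each sequence reads 5′ to 3′ on the strand of its gene.

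RARB, chr3:25428013-25428262, plus strand: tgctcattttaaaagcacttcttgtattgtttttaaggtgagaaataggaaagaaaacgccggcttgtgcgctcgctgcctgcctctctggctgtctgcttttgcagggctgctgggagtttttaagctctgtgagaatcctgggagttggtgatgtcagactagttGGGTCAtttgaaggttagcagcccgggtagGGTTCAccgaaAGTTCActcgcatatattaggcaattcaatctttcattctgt

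ALDH1A3, chr15:100879581-100879830, plus strand: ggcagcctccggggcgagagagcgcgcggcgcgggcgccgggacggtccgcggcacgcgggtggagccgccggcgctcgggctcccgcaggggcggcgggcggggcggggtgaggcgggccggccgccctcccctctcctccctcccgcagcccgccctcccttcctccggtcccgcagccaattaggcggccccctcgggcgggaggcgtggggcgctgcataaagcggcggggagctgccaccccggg

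DHRS3, chr1:12618211-12618460, minus strand: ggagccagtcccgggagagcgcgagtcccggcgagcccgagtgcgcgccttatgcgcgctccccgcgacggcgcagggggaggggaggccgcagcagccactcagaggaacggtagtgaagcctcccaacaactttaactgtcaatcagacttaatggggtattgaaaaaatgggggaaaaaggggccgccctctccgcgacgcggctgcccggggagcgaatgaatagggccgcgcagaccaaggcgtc

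The RARB window held a repeat with a spacer of 5 bases, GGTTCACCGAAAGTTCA, from base -53 to base -37 before the start site. Such a repeat was present in 26 of 35116 windows of the same length (0.074%), and a spacer of 3 or 4 bases in 0.0655% and 0.074%. RARB is a classical target, and both half-sites are among the forms searched for, so these shares do not test its match. Of the 16 member windows, 1 held a repeat of any of these spacers. At least 1 half-site was present in 8 of the 16 member windows (50%) and in 33.8% of all windows, a difference that was not tested. The ALDH1A3 window had none. Of the 3 DHRS3 windows, the one printed here had none and the other 2 had 1 each. The matches describe letters in these windows only.

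The arrays were checked before the members were read. The only ZNF750 probe set lay between 2.13 and 2.37 log2 units on all 4 arrays, near the bottom of the table, and differed by 0.0037 ± 0.12 (limma SE). Where its probes lie relative to the introduced sequence was not examined here, so it does not check the labels, and the arrays are named by their label, ZNF750-labelled. Of the markers fixed for the cell type, 8 epithelial and carcinoma genes lay at or above percentile 94.9 of all genes. Of these 8, 3 passed as higher and 2 as lower in limma, among them KRT5 by 0.24 ± 0.032, KRT18 by -0.34 ± 0.043 and CDKN2A by -0.29 ± 0.043, and their part in the members' differences was not tested. The 9 markers of blood, endothelium, fibroblasts, liver and glia lay between percentiles 2.32 and 70.4, with COL1A1 the brightest. Their mean ran from 5.204 to 5.275 log2 units in the GFP arrays and from 5.336 to 5.392 in the ZNF750-labelled arrays. Of the 9, 0 passed (limma, 0 also at an unadjusted p under 0.05). All 9 differences were above 0, against 57.4% over all genes, with medians of 0.131 and 0.036. This shift was not tested. RNA integrity and labelling can be read from control probe sets placed along ACTB and GAPDH. For ACTB, signal at the 3′ end exceeded that at the 5′ end by 3.03 and 2.81 log2 units in the GFP arrays. In the ZNF750-labelled arrays this excess was 3.76 and 3.35. For GAPDH it was 0.63 and 0.61 in the GFP arrays and 0.85 and 0.80 in the ZNF750-labelled arrays. The part of this excess in the differences below was not tested. In RNA from a whole culture, a change in the share of cells that express a gene and a change in RNA per cell cannot be told apart.

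The comparison asked whether the enzymes, receptors and targets of this axis differ between ZNF750-labelled and GFP cells. The synthesis enzyme ALDH1A3 and the retinal reductase DHRS3 rose by 1.31-fold and 1.33-fold. Of the 19 receptor probe sets 0 passed the test, against 11.5% of all probe sets. A difference is given as ZNF750-labelled minus GFP in log2 units, from limma with p-values adjusted by Benjamini-Hochberg over all probe sets, and passes at an adjusted p under 0.05. Of the 27 member probe sets, 3 were higher and 0 were lower (3 were lower at an unadjusted limma p under 0.05). The 3 that passed belonged to ALDH1A3, DHRS3 and RARRES1.

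These counts lay near the background. Over all probe sets 11.5% passed, 4.3% as higher and 7.19% as lower, against 11.1% of the member probe sets. At an unadjusted limma p under 0.05, 6762 of the 54613 probe sets were higher and 7530 lower, against 4 and 3 of the 27 members. After cyclic loess, 45.8% of all calls were higher and after centring on brighter probe sets 53.8%, against 37.4% in the deposited values. Bright probe sets passed more often: 29.8% of the brightest 13654 by mean signal, where 2 of 8 members passed, and 2.06% of the dimmest 13653, where 1 of 4 did. The median difference of the members was 0.0061, and that of all probe sets was 0.026. The groups did not overlap for 12 of the 27 members (44.4%) and for 54.2% of all probe sets. With 1 probe set per gene, the brightest, 2 of the 10 member genes were higher and 0 lower, where 18% of 19775 genes passed. At an unadjusted limma p under 0.05, 2 of the 10 were higher and 2 lower, against 3162 and 3129 of all 19775 genes. Groups did not overlap for 6 of the 10 and for 58.8% of all genes.

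**Figure D1:**
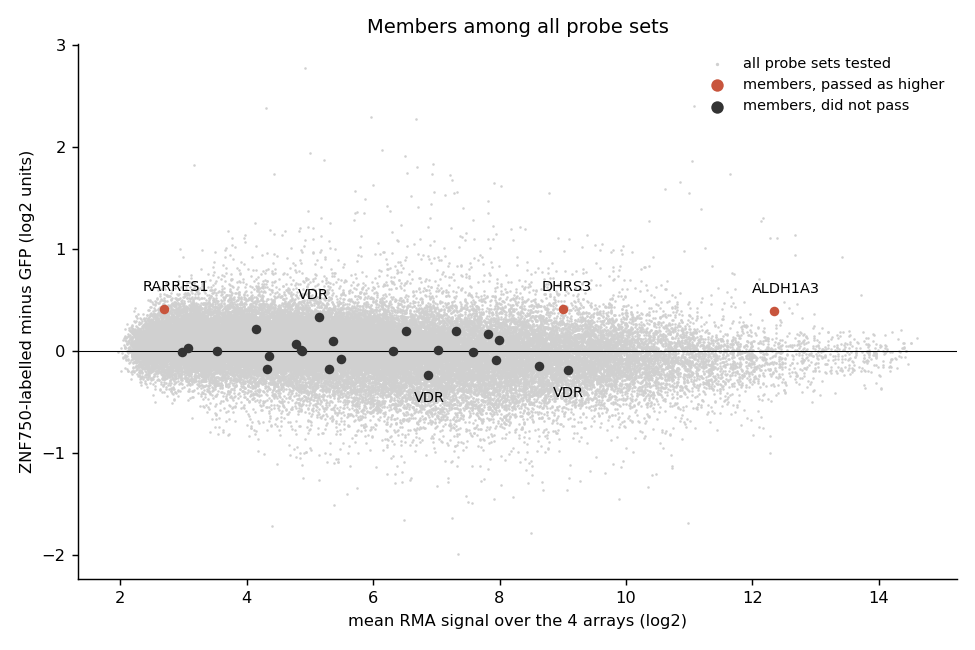
Each grey point is 1 of the 54613 probe sets tested, placed by its mean RMA signal over the 4 arrays (horizontal axis, log2) and its difference between ZNF750-labelled and GFP arrays (vertical axis, log2 units). Members that passed are red and the other members black, and names mark those that passed and the VDR probe sets with an unadjusted limma p under 0.05. The 27 members lie between -0.24 and 0.41, inside the cloud of all probe sets, with ALDH1A3 at the bright end and the RARRES1 probe set that passed at the dim end.

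The calls depended on the variance model and on single arrays of both groups. Without limma's intensity trend 0 of the 27 member probe sets passed (4 were higher and 1 lower at an unadjusted limma p under 0.05), with limma adjusted p = 0.0689 for ALDH1A3, 0.0927 for DHRS3 and 0.0694 for RARRES1. Without GFP replicate 1 or without GFP replicate 2, 0 of the 27 member probe sets passed (3 were higher at an unadjusted limma p under 0.05 each time), and of all probe sets 11 and 9 passed. Without ZNF750 replicate 1 or without ZNF750 replicate 2, 1 member probe set passed, that of ALDH1A3. The differences themselves moved less. They ranged from 0.37 to 0.41 for ALDH1A3, from 0.32 to 0.50 for DHRS3 and from 0.36 to 0.46 for the RARRES1 probe set over these 4 omissions.

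**Figure D2:**
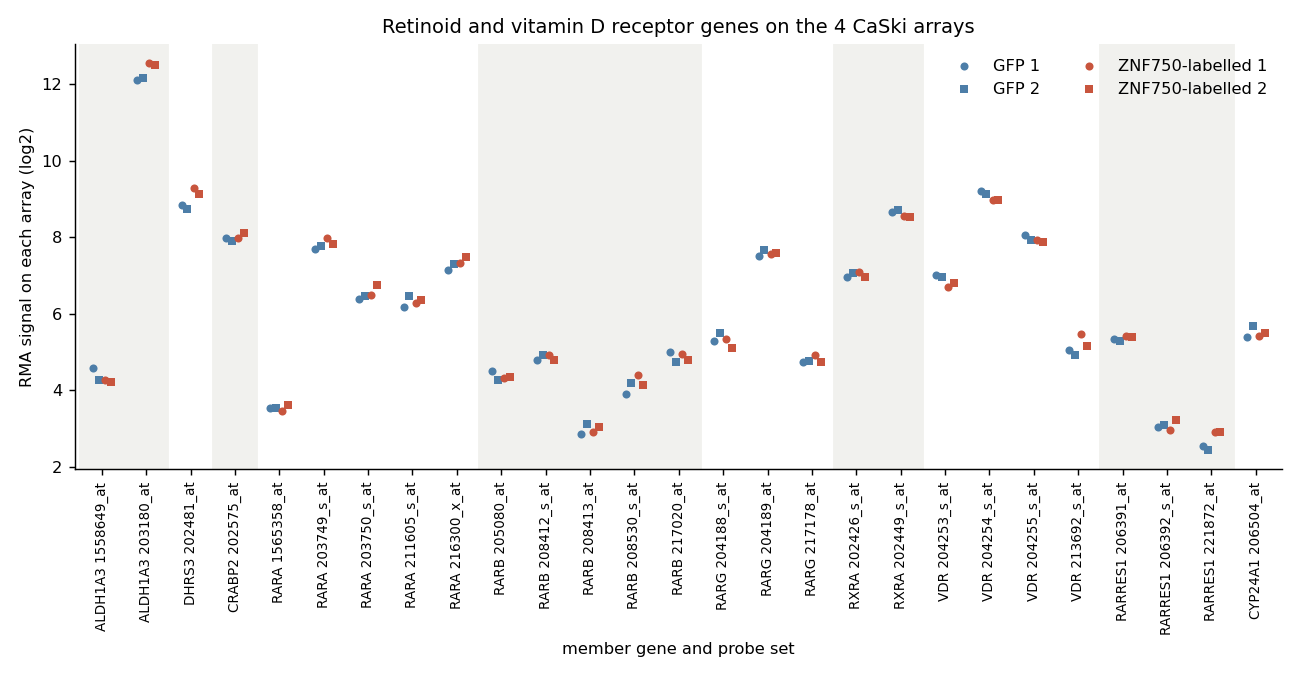
Points give the RMA signal (vertical axis, log2) of every member probe set (horizontal axis, grouped by gene with alternate shading) on the 2 GFP arrays in blue and the 2 ZNF750-labelled arrays in red, with replicate 1 as circles and replicate 2 as squares. ALDH1A3 203180_at and DHRS3 202481_at sit higher on both ZNF750-labelled arrays, and the 5 RARB probe sets overlap.

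Among the enzymes that set the supply of retinoic acid, ALDH1A3 rose. It encodes retinaldehyde dehydrogenase 3, which oxidizes retinal to retinoic acid. Its bright probe set 203180_at, at percentile 99.2 of all probe sets, read 12.13 and 12.17 in the GFP arrays and 12.55 and 12.52 in the ZNF750-labelled arrays. Both ZNF750-labelled arrays were above both GFP arrays, by more than the replicates of either group differed. The difference was 0.39 ± 0.037 (limma SE, n = 2 per group), or 1.31-fold (limma adjusted p = 0.00158).

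The second ALDH1A3 probe set, 1558649_at, gave no such rise. It was made from a different transcript sequence, AK056534, and was dim, at 4.57 and 4.26 with GFP and 4.27 and 4.21 in the ZNF750-labelled arrays. The groups overlapped and the difference was -0.17 ± 0.14 (limma adjusted p = 0.487). Averaging the probe sets took ALDH1A3 to 0.11, which did not pass (limma adjusted p = 0.311). Among the other genes of its family, ALDH1A1 lay near the bottom of the table, at percentile 3.23 of all genes, and ALDH1A2 at percentile 22.8. They differed by 0.05 ± 0.11 and 0.16 ± 0.13, and neither passed.

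DHRS3 rose as well. Its product reduces retinal back to retinol, opposing the step of ALDH1A3, and the gene is itself induced by retinoic acid in many cells. Its only probe set, 202481_at, read 8.86 and 8.74 with GFP and 9.29 and 9.12 in the ZNF750-labelled arrays. The groups did not overlap, and the gap between them was larger than the gap between the replicates. The difference was 0.41 ± 0.079, or 1.33-fold (limma adjusted p = 0.0176).

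CRABP2, the carrier that brings retinoic acid to its receptors in the nucleus, did not pass. It read 7.98 and 7.91 with GFP and 7.97 and 8.12 in the ZNF750-labelled arrays, of which 1 lay between the GFP arrays. The difference was 0.10 ± 0.081, with a 95% interval from -0.08 to 0.29 (limma adjusted p = 0.471). FABP5, a second carrier of retinoic acid that passes it to PPARD, was bright and differed by -0.04 ± 0.050 without passing.

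The receptors came next: 0 of their 19 probe sets passed, against 11.5% of all probe sets, a difference that was not tested. Of the 19, 1 was higher and 3 were lower at an unadjusted limma p under 0.05, against 6762 and 7530 of all 54613 probe sets. The differences of the 19 ran from -0.24 to 0.33, with a median of 0.0021. The receptors' single 95% limma intervals lay between -0.49 and 0.65. Differences of dim probe sets are understated by RMA, which pulls low signals toward a common background.

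RARA, the most widely expressed retinoic acid receptor, had 5 probe sets, and each gave a difference above 0. The brightest, 203749_s_at, read 7.70 and 7.76 with GFP and 7.97 and 7.83 in the ZNF750-labelled arrays. These did not overlap, but the difference of 0.17 ± 0.081 did not pass (limma adjusted p = 0.236). Probe sets 203750_s_at and 216300_x_at also had groups that did not overlap, with differences of 0.19 ± 0.11 and 0.20 ± 0.096, and neither passed. The others, 211605_s_at and the dim 1565358_at, differed by 0.0021 and 0.0039. The suffixes _s_at and _x_at mark a design whose probes may also detect further transcripts, and these probe sets share a target, so they are not independent readings.

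RARB, which carries the repeat printed above and is both a receptor and a target of retinoic acid, showed no difference that passed in any of its 5 probe sets. All were dim, between percentiles 8.81 and 39.1. The brightest, 217020_at, read 4.99 and 4.75 with GFP and 4.96 and 4.78 in the ZNF750-labelled arrays, a nearly complete overlap. Its difference was -0.0029 ± 0.14, with a 95% interval from -0.32 to 0.32 (limma adjusted p = 0.996). The differences of the others ran up to 0.22 ± 0.15, for 208530_s_at, and the groups overlapped for each.

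RARG is the retinoic acid receptor of epidermal keratinocytes. Its bright probe set 204189_at read 7.51 and 7.66 with GFP and 7.56 and 7.58 in the ZNF750-labelled arrays. The ZNF750-labelled arrays lay between the GFP arrays. The difference was -0.01 ± 0.082, with a 95% interval from -0.21 to 0.18 (limma adjusted p = 0.948). The dimmer 204188_s_at and 217178_at differed by -0.18 ± 0.13 and 0.07 ± 0.12, opposite in sign, and did not pass.

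RXRA, the partner shared by the retinoic acid and vitamin D receptors, read 8.67 and 8.72 with GFP on 202449_s_at and 8.56 and 8.53 in the ZNF750-labelled arrays. The ZNF750-labelled arrays were lower without overlap, but the difference of -0.15 ± 0.063 did not pass (limma adjusted p = 0.187). The second probe set, 202426_s_at, overlapped and differed by 0.0061 ± 0.088. RXRB, the other retinoid X receptor with a clear signal, differed by 0.10 ± 0.063 and did not pass.

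The differences of the VDR (vitamin D receptor) probe sets spanned 0.566 log2 units, and those of the 2 ALDH1A3 probe sets spanned 0.562. The brightest, 204254_s_at, read 9.21 and 9.13 with GFP and 8.99 and 8.98 in the ZNF750-labelled arrays. Both ZNF750-labelled arrays were lower, and the difference was -0.19 ± 0.060, with a 95% interval from -0.33 to -0.05 (limma adjusted p = 0.0960). With 1 probe set per gene and dim genes left out, the same probe set passed as lower (limma adjusted p = 0.0391).

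The other VDR probe sets did not move as one. On 204253_s_at the values were 7.01 and 6.96 with GFP and 6.70 and 6.80 in the ZNF750-labelled arrays, so that it differed by -0.24 ± 0.087, and 204255_s_at differed by -0.09 ± 0.076. The dimmest, 213692_s_at, went the other way, from 5.05 and 4.92 with GFP to 5.47 and 5.16 in the ZNF750-labelled arrays (0.33 ± 0.14). Groups did not overlap for any of the 4, as for 54.2% of all probe sets, and none of the 4 passed. The mean of the VDR probe sets differed by -0.04 (limma adjusted p = 0.707). Whether the probe sets differ from each other was not tested.

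**Figure D3:**
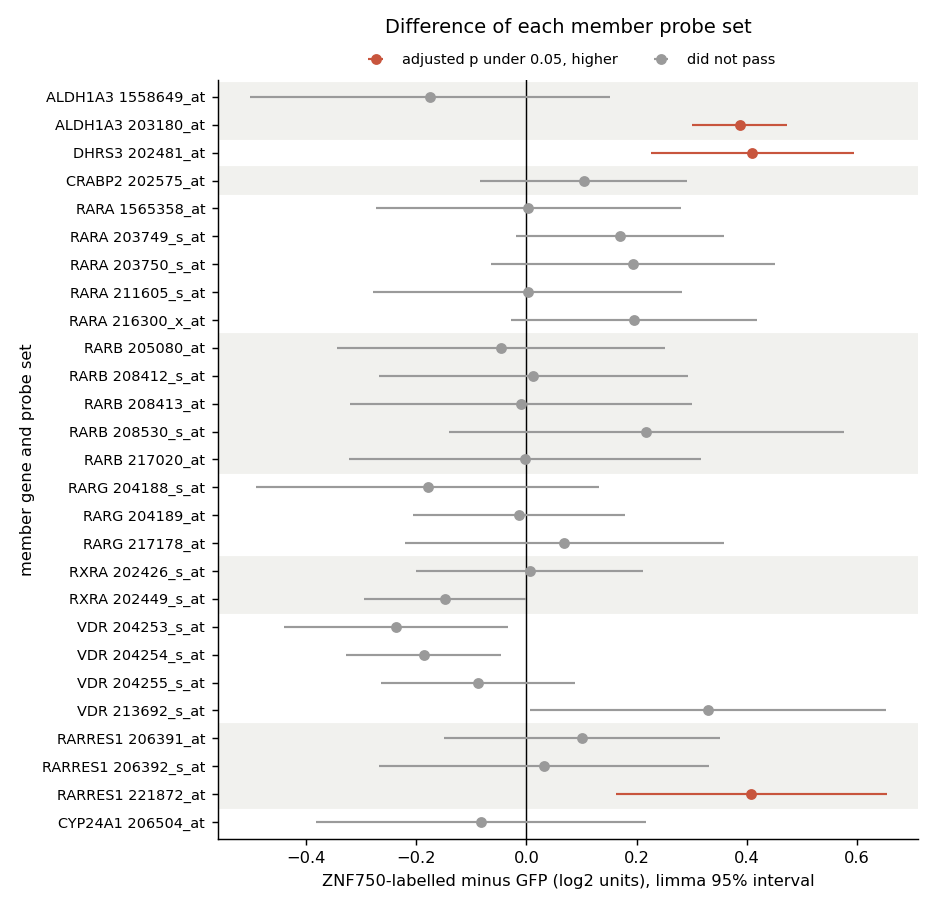
Points give the difference between ZNF750-labelled and GFP arrays (horizontal axis, log2 units) of each member probe set, with bars for limma's 95% interval, and red marks an adjusted p under 0.05. The 3 red points are ALDH1A3 203180_at, DHRS3 202481_at and RARRES1 221872_at. The 4 VDR probe sets spread from -0.24 to 0.33 and the 2 ALDH1A3 probe sets from -0.17 to 0.39.

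The targets gave 1 call, on a probe set near the floor of the table. RARRES1, named for its induction by retinoic acid and encoding a membrane protein related to carboxypeptidase inhibitors, had 3 probe sets. On 221872_at the values were 2.55 and 2.44 with GFP and 2.90 on both ZNF750-labelled arrays, which differed by 0.41 ± 0.10 (limma adjusted p = 0.0473). The 2 ZNF750-labelled values were identical in every deposited decimal, as they were for 420 probe sets (0.769%). This probe set lay at percentile 4.87 of all probe sets, and whether it was above background is not known. It did not pass after cyclic loess (0.34, limma adjusted p = 0.0838).

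The brightest RARRES1 probe set, 206391_at, read 5.34 and 5.28 with GFP and 5.43 and 5.39 in the ZNF750-labelled arrays. These did not overlap, and the difference of 0.10 ± 0.11 did not pass (limma adjusted p = 0.617). The third, 206392_s_at, differed by 0.03 ± 0.13. The rise of RARRES1 therefore rests on 1 of its 3 probe sets.

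CYP24A1 encodes the hydroxylase that inactivates calcitriol, and it is the gene most strongly induced by the vitamin D receptor in epithelial cells. Its only probe set, 206504_at, read 5.40 and 5.68 with GFP and 5.43 and 5.49 in the ZNF750-labelled arrays. Both ZNF750-labelled arrays lay between the GFP arrays. The difference was -0.08 ± 0.13, with a 95% interval from -0.38 to 0.22 (limma adjusted p = 0.749).

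**Figure D4:**
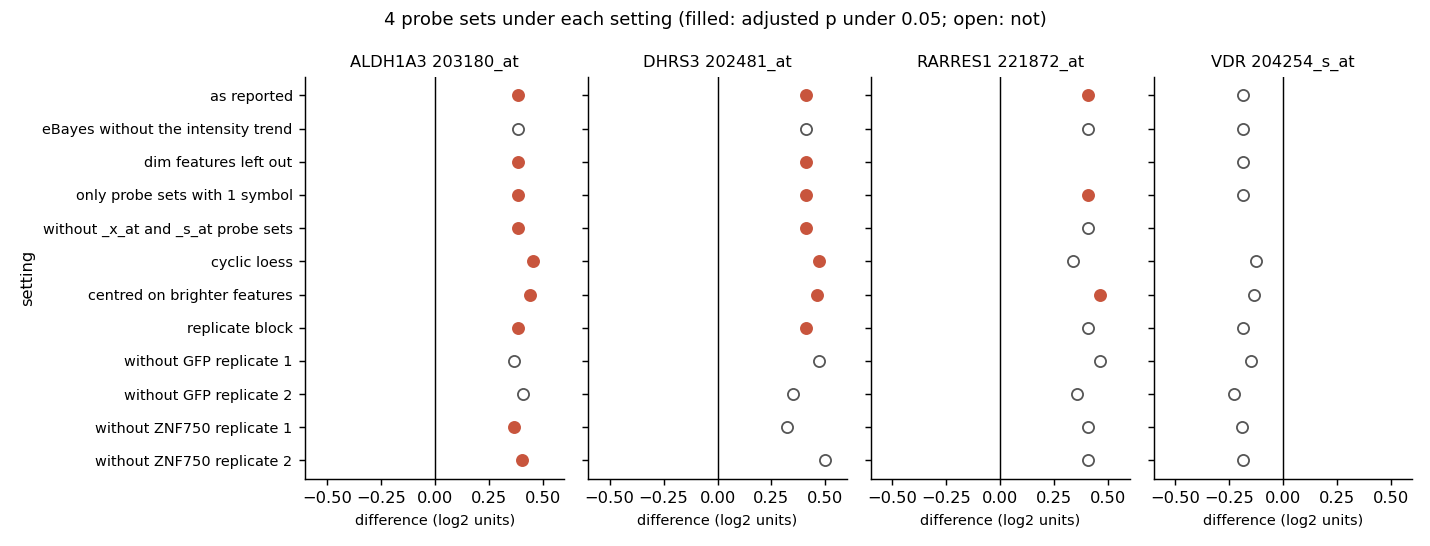
Each panel gives the difference of 1 probe set (horizontal axis, log2 units) under each setting (vertical axis), filled where the adjusted p was under 0.05 and open where it was not, and empty where the setting leaves the probe set out. Differences of ALDH1A3, DHRS3 and RARRES1 stay above 0 and that of VDR 204254_s_at below 0. The 3 calls end without the intensity trend and without either GFP array, and not all remain without either ZNF750-labelled array.

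Other genes of the pathway were counted from a list of 67, of which 54 were measured by a probe set with 1 symbol and 13 were not analysed here. With the brightest probe set of each gene, 5 were higher, 2 were lower and 47 did not pass. Over all 19775 genes 7.79% were higher and 10.2% lower, against 9.26% and 3.70% of the list, and the medians were 0.036 and 0.012. At an unadjusted limma p under 0.05, 3162 of the 19775 genes were higher and 3129 lower, against 7 and 7 of the 54. Of the calls over all genes, 43.4% were higher, rising to 55.9% after cyclic loess and 57.1% after centring on brighter genes. Without GFP replicate 1 the list held 1 higher and 0 lower genes, and without GFP replicate 2 it held 2 and 0.

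The largest rise on the list was that of THBD, encoding thrombomodulin, an anticoagulant receptor of endothelium and keratinocytes that is induced by both retinoic acid and vitamin D. Its brightest probe set read 9.46 and 9.39 with GFP and 10.46 and 10.37 in the ZNF750-labelled arrays. The difference was 0.99 ± 0.056, or 1.99-fold (limma adjusted p = 0.000150), and all 3 of its probe sets passed as higher. THBD was the 1 gene higher among 11 other vitamin D receptor targets. CALB1, a calcium-binding protein, fell by 0.21 on the log2 scale (SE 0.055, limma adjusted p = 0.0348), though not after cyclic loess (limma adjusted p = 0.0721) or with any 1 array left out. Its second probe set, 205625_s_at, was lower by a larger amount, -0.39 ± 0.062 (limma adjusted p = 0.00855 over all probe sets, where the brightest had 0.0519). The other 9, among them TRPV6, S100G and CAMP, did not pass. At an unadjusted limma p under 0.05, 2 of the 11 were higher and 3 lower, against 3162 and 3129 of all 19775 genes. Of the 11 differences 18.2% were above 0, against 57.4% over all genes, which was not tested.

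CYP27B1 fell. It encodes the 1-alpha-hydroxylase that makes calcitriol, so its product acts upstream of VDR and opposes CYP24A1. Its values were 9.11 and 9.03 with GFP and 8.75 and 8.54 in the ZNF750-labelled arrays, without overlap. The difference was -0.42 ± 0.082, or 1.34-fold lower (limma adjusted p = 0.0117). It was the 1 gene of 6 of vitamin D synthesis and uptake that passed. Without GFP replicate 1, without GFP replicate 2 or without ZNF750 replicate 2 it did not pass (limma adjusted p = 0.167, 0.113 and 0.0670).

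PPARD, a nuclear receptor that pairs with RXR and can bind retinoic acid delivered by FABP5, rose 1.78-fold. It read 9.93 and 9.96 with GFP and 10.69 and 10.85 in the ZNF750-labelled arrays. The difference was 0.83 ± 0.060 (limma adjusted p = 0.000315), and 3 of its 4 probe sets passed as higher. It was the 1 gene of 4 binding proteins and receptor partners that passed.

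Of 10 coactivators and corepressors, 2 were higher and 0 lower (2 lower at an unadjusted limma p under 0.05). NRIP1, a corepressor of nuclear receptors that retinoic acid induces, read 10.86 and 10.74 with GFP and 11.26 and 11.18 in the ZNF750-labelled arrays. The difference was 0.42 ± 0.055 (limma adjusted p = 0.00273), and both of its probe sets passed as higher. SNW1, a coactivator of the vitamin D receptor, was 0.20 ± 0.042 higher on its brightest probe set (limma adjusted p = 0.0152), but its second probe set, 215424_s_at, passed as lower (-0.39 ± 0.092). The mean of the SNW1 probe sets gave -0.092 and did not pass.

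The genes that take in, store, interconvert and clear retinoids gave 1 call. Of 8 genes of retinol and retinal interconversion, ADH4 was higher, by 0.67 ± 0.098 on an _x_at probe set (limma adjusted p = 0.00416), and the other 3 ADH4 probe sets were dim, differed by -0.04 to -0.15 and did not pass. Of 7 genes of retinol uptake and storage 0 passed (0 higher and 1 lower at an unadjusted limma p under 0.05). Of 4 measured genes of retinoic acid synthesis and clearance 0 passed (0 at an unadjusted limma p under 0.05). CYP26A1 and CYP26B1 encode the enzymes that degrade retinoic acid, and the former is its most inducible target. They differed by -0.07 ± 0.13 and -0.11 ± 0.073, and lay at percentiles 26.1 and 68.1 of all genes. Of 4 other measured retinoic acid targets 0 passed (0 at an unadjusted limma p under 0.05). These 4 lay between percentiles 22.2 and 53.4. Whether CYP26A1 and the dim ones among them were above background is not known.

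**Figure D5:**
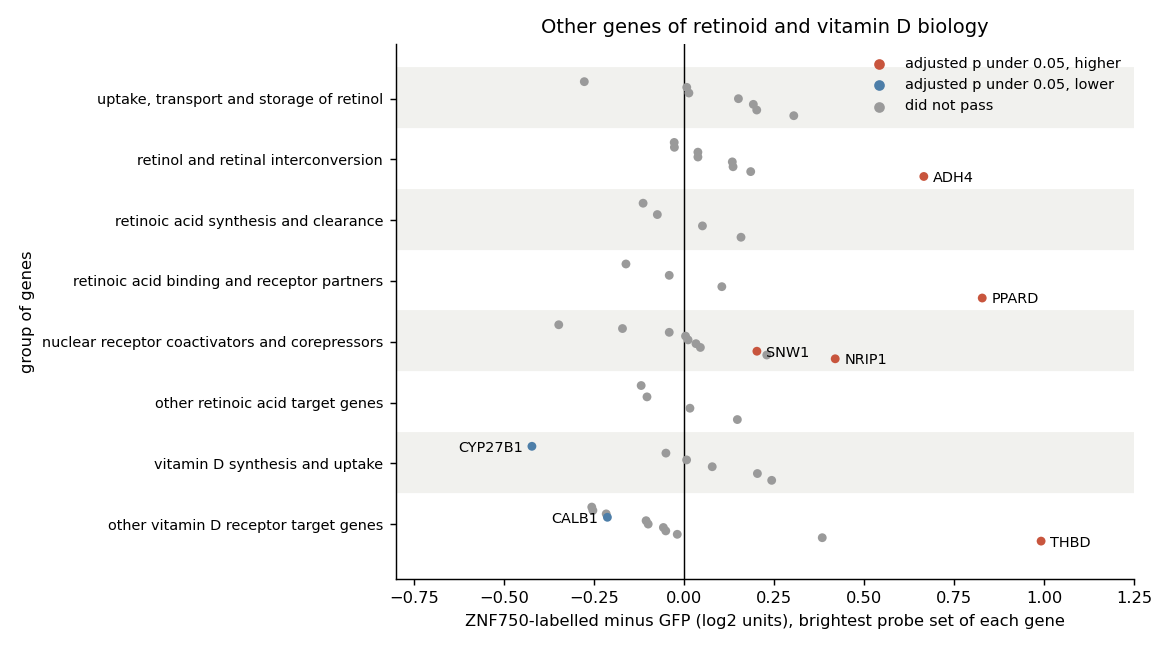
Each point is the difference between ZNF750-labelled and GFP arrays (horizontal axis, log2 units) of 1 of 54 genes, by its brightest probe set, within 8 groups of the pathway (vertical axis, spread out by rank within a group). Red genes passed as higher, blue as lower and grey did not pass. THBD at 0.99 and PPARD at 0.83 lie farthest right, and CYP27B1 at -0.42 farthest left.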

How the data were processed

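The authors deposited log2 values made with RMA, per the submitters' processing notes; the sources used here state no version. RMA corrects background, quantile normalizes the arrays and summarises each probe set. The deposited table held 54675 probe sets, of which 62 controls were left out, and no genome build or detection calls. Gene symbols came from the platform annotation: 41091 probe sets carried 1 symbol, 1801 several and 11721 none.

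ZNF750-labelled and GFP arrays were compared by limma 3.58.1 (R 4.3.3; lmFit and eBayes, trend allowed; 2 residual degrees of freedom) over all 54613 probe sets, and again over 19775 genes by the probe set of highest mean. An exact permutation test of 2 against 2 arrays cannot go below p = 0.333 and was not used. The fit was tested on simulated data. Named genes were every probe set of the members, up to 12 list genes that passed, and 8 fixed by name, of which 7 were measured. The members and lists were chosen with earlier results of these data known. Alternatives covered the variance prior, dim, multi-symbol and _x_at or _s_at probe sets, probe set means, cyclic loess, centring, a replicate block, the threshold and omitted arrays. The number of arrays limits the precision.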

Additional observations from a re-analysis of the deposited data

How the results depend on the processing

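Member probe sets higher numbered 3 as reported, 0 without the intensity trend and 1 at an adjusted p under 0.01, and the 0 lower became 1 at an adjusted p under 0.1. Member genes higher, 2 by the brightest probe set, became 1 without the intensity trend, 1 with the mean of probe sets and 1 at an adjusted p under 0.01. The 0 member genes lower became 1, VDR, with dim genes left out and at an adjusted p under 0.1. Higher genes of the wider list, 5 in all, became 3 when _x_at and _s_at probe sets were dropped. Every ADH4 and NRIP1 probe set carries such a suffix, so neither gene was in that fit. The higher genes also became 3 when a gene's probe sets were averaged, which turned SNW1 from 0.20 to -0.092. The 2 lower genes of the wider list became 0 without the intensity trend and at an adjusted p under 0.01. They became 1 after cyclic loess, 4 with dim genes left out and 6 at an adjusted p under 0.1. With 1 array left out, higher member probe sets ranged from 0 to 1, lower from 0 to 0, higher member genes from 0 to 2, lower from 0 to 0, higher list genes from 1 to 4 and lower from 0 to 1. A group left with 1 array is assumed to vary like the other. Beyond ADH4 and NRIP1 leaving a fit, the cause of these changes was not tested.

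Over all probe sets 6275 passed, against 1274 without the intensity trend, 2178 at 0.01, 9432 at 0.1, and 3075 without _x_at and _s_at probe sets, where fewer were tested. Over all genes 3554 passed, against 1495 without the intensity trend and 1635 at 0.01. With the replicate number as a block, 2 member probe sets and 2 member genes were higher, RARRES1 221872_at did not pass (adjusted p = 0.0759), and 5794 probe sets passed. Deviations of same-numbered arrays correlated at 0.134, and with 2 numbers the arrays share only a number.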

Other observations

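NCOA1, a coactivator of nuclear receptors, is named here after its values were seen. Of its 4 probe sets, 209106_at was lower, by -0.53 ± 0.10 (limma adjusted p = 0.0195), at 7.02 and 6.88 with GFP and 6.52 and 6.32 in the ZNF750-labelled arrays. The other 3 differed by -0.11, 0.01 and 0.01 and did not pass, and the brightest of them represents NCOA1 in the gene counts. TBL1XR1, a corepressor subunit chosen in the same way, had 6 probe sets, of which 1 passed as higher and 5 did not pass. The one that passed, 222633_at, differed by 0.46 ± 0.056, and the brightest by 0.0042 ± 0.043. Probe sets 222634_s_at and 221428_s_at were lower without overlap and differed by -0.37 ± 0.11 and -0.19 ± 0.069. The remaining ones differed by 0.00067 and 0.028.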
